A study of Mus musculus with 58 samples.

Results

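The report concerns 10 genes of hepatic stellate cells and liver fibroblasts, collagens left out, measured on 58 arrays of mouse liver. Ecm1, Reln, Hgf, Dcn, Lrat and Colec11 were grouped as markers of quiescent stellate cells, and Des as a marker of the whole lineage. Acta2, Pdgfrb and Timp1 were grouped as markers of the activated state. The 10 genes came from a list of stellate cell and fibroblast genes. Each is represented by its brightest transcript cluster (the probe set of a gene on the array) with a single gene symbol. All 10 were measured, each by 1 such cluster, among 22180 genes in all. The arrays hold RNA of 29 liver tumors and 29 normal livers of adult mice of mixed FVB/NJ, C57BL/6 and 129/Sv background. Every animal, those that gave normal liver included, had received adeno-associated virus (AAV, a gene transfer vector) after birth, and the design text says as newborns, so no group is free of the vector. The series asks whether insertion of the vector contributed to hepatocellular carcinoma. The vector, its dose and the age at sampling are not given in the labels, except that the title of 1 normal liver names GFP. Normal liver here is tissue labelled normal, in 18 cases from an animal that also gave a tumor. The titles were read as naming 39 animals, of which 18 gave 1 array of each tissue and 1 gave 2 tumors (tumors 22 and 26). Normals 26 and 27, whose titles name the same animal but differ in a -/- or +/- mark, were counted as separate animals. Normal 17 and tumor 19 were counted as a pair, although the title of normal 17 alone bears a mark. Labelled sex was female for 11 tumors and 9 normal livers and male for 17 tumors and 20 normal livers, and 1 tumor carried no such label. Of the titles, 5 tumors and 4 normal livers bore -/- and 5 tumors and 5 normal livers bore +/-, with no gene named.

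Stellate cells lie between the sinusoidal endothelium and the hepatocytes. In healthy liver they are quiescent, store vitamin A as retinyl ester in lipid droplets and release growth factors and matrix proteins in small amounts. After injury they turn into contractile myofibroblasts that carry smooth muscle actin, respond to platelet-derived growth factor and deposit collagen, and such cells are also found in the stroma of liver cancer.

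The values are log2 array signals, 1 per transcript cluster, with array medians between 6.72 and 7.15, and the number of arrays limits the precision. The arrays correlated with each other at 0.792 to 0.99 over all genes. Tumor 9 had the lowest mean correlation, 0.839, the next array standing at 0.914. In tumor 9 the mean of 10 hepatocyte genes was 7.72, against 11.65 to 12.6 in the other tumors, and the mean of 6 T cell genes was 10.58, against 6.31 to 7.99. Normal 16, a female liver, had the highest value of the 29 normal livers in 8 of the 10 stellate cell genes, and its cholangiocyte mean was 8.69, against 6.47 to 7.04 in the other normal livers. The levels of Xist and of 3 Y-linked genes went against the sex label in 7 arrays, 4 of tumors and 3 of normal liver. Where stated, results are also given without these arrays.

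Genes of quiescent stellate cells were lower in tumors, whereas the activated genes stood higher or were not separated. Of the 6 quiescent genes 5 fell (Ecm1, Reln, Hgf, Dcn and Lrat) and Colec11 did not pass the test. Of the 3 activated genes Acta2 rose, and Pdgfrb, Timp1 and the lineage gene Des did not pass. A gene was called at an adjusted p under 0.05 in a limma fit over all 58 arrays with the animal as a random block. Among all 22180 genes 14.3% were called lower and 17.9% higher by the same rule. These shares are the background beside 5 of the 6 quiescent and 1 of the 3 activated genes. They are also the background beside the counts of every gene list below. After median centring of the arrays the shares were 7.79% lower and 21.1% higher, and the same 5 genes were lower. The median log2 change was -0.93 for the 6 quiescent genes, 0.38 for the 3 activated genes and -0.02 for all genes. In whole tissue, fewer stellate cells and less RNA of a gene per cell cannot be told apart.

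Promoter sequence is shown for the 4 called genes whose window held a searched motif, to set the letters before their starts side by side. A RefSeq window for build GRCm38.p6 was found for 8 of the 10 genes (9 windows, Hgf having 2). The 250 bases before the start are printed, 5′ to 3′ in the direction of the gene, with matches in capitals. The motifs were searched on both strands. They were the TATA box, as TATAAA. The site bound by AP-1 was searched as TGANTCA. For the GC box the letters were GGGCGG. For the CCAAT box they were those of its name. For serum response factor it was the CArG box, 6 letters of A or T between paired C and paired G, where at most 1 of the 6 could differ. No matches overlap each other in the sequences shown.
Ecm1 (chr3:95739570-95739819, minus strand): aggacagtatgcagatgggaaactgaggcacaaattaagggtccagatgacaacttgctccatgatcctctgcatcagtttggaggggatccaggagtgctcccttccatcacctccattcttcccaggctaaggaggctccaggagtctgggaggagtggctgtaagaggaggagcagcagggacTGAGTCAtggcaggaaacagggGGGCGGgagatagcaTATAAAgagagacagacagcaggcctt
Reln (chr5:22344706-22344955, minus strand): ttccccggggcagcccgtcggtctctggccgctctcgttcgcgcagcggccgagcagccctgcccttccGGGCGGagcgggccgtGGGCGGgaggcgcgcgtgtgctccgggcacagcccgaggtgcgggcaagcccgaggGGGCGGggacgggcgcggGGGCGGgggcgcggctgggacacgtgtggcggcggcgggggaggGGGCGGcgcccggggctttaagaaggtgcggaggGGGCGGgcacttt
Lrat (chr3:82903975-82904224, minus strand): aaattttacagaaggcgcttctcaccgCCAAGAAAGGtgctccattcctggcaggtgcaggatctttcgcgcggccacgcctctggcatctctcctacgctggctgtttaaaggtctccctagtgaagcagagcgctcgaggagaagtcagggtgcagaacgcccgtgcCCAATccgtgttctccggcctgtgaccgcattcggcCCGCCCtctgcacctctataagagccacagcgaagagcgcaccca
Acta2 (chr19:34255374-34255623, minus strand): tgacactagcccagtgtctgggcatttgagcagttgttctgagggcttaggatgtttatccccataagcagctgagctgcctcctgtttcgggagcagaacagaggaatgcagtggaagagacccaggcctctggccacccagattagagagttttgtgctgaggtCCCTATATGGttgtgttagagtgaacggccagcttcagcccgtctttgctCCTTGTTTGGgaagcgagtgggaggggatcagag

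The Ecm1 window held a TATA box 27 bases before the start, found in 12.4% of 32851 windows of all genes. It also held a GC box at 42, found in 32.7% of windows, and an AP-1 match at 64, found in 6.75%. The Reln window held GGGCGG 6 times at a GC content of 80.0%, against a mean of 53.2% over all windows, of which 0.886% held it 6 times or more. The Lrat window held CCAAT 81 bases before the start, found in 33.8% of windows, the reverse of GGGCGG at 45 and a CArG match at 223. The Acta2 window held CArG matches 84 and 34 bases before the start, CCCTATATGG and CCTTGTTTGG, and 0.67% of windows held at least 2 such matches (8.59% at least 1). The windows of Hgf and Colec11 held none of these motifs, those of Des and Timp1 held GGGCGG on the reverse strand, and that of Timp1 also held CCAAT on the reverse strand. The matches are a description of letters, and binding was not measured.

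Ecm1, a secreted matrix protein that restrains the activation of latent TGF-beta in the liver, fell most of the 10 genes over all arrays. Its log2 value (transcript cluster 17407850) was 7.54 at the lowest, 9.29 at the median and 10.94 at the highest of 29 tumors, and 9.82, 10.77 and 11.37 at the lowest, median and highest of 29 normal livers. In 17 of 29 tumors Ecm1 lay below every normal liver, and the upper tumors lay within the range of normal liver. The mean was 9.53 ± 0.85 in tumors and 10.76 ± 0.35 in normal livers (SD, n = 29 each), a 2.34-fold lower level in the tumors (log2 difference -1.22, SE 0.16, limma adjusted p = 1.19e-08). Within the 18 animals the tumor was lower in 17 and higher in 1, and the differences ran from -3.31 to 0.22. The lowest value was that of tumor 9, in which the hepatocyte genes were low too. Without tumor 9 the change of Ecm1 was -1.15 (limma adjusted p = 5.15e-09), against -1.18 for Reln.

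Reln encodes reelin, a secreted glycoprotein best known from neuronal migration, which stellate cells make in the liver. In log2 units Reln (cluster 17445922) was 6.77 at the lowest, 7.91 at the median and 10.07 at the highest in tumors, against 8.02, 9.12 and 10.52 in normal livers. The tumors spread over more than the range of normal liver, with 15 of 29 below its lowest value. Reln stood 2.26-fold lower (log2 difference -1.18, SE 0.19, limma adjusted p = 1.39e-06), and lower in 16 of 18 animals.

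Hgf encodes hepatocyte growth factor, which stellate cells release and which acts on the Met receptor of hepatocytes. Hgf (cluster 17434933) had log2 values of 6.84, 8.21 and 9.81 at the lowest, median and highest tumor, against 8.18, 9.3 and 11.19 in normal livers. The groups overlapped, with 12 of 29 tumors below all normal livers. Hgf stood 2.06-fold lower (log2 difference -1.04, SE 0.17, limma adjusted p = 1.97e-06), and lower in 17 of 18 animals.

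Dcn encodes decorin, a small leucine-rich proteoglycan that binds collagen and TGF-beta and is made by fibroblasts of many tissues as well as by stellate cells. Its log2 signal (cluster 17236800) was 8.64 at the lowest, 10.88 at the median and 12.04 at the highest in tumors, against 10.84, 11.75 and 12.84 in normal livers. The SD over tumors was 2.36 times that over normal livers, beside a median ratio of 1.12 over all genes, and 14 tumors lay below the lowest normal liver while the rest overlapped with normal liver. Dcn stood 1.75-fold lower (log2 difference -0.81, SE 0.17, limma adjusted p = 0.000155), and lower in 13 of 18 animals.

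Lrat encodes lecithin retinol acyltransferase, the enzyme that makes the retinyl esters stellate cells store. Its log2 value (cluster 17406247) was 6.69 at the lowest, 8.78 at the median and 10.67 at the highest in tumors, against 7.97, 9.27 and 11.95 in normal livers. Most tumors overlapped with normal liver, and 6 lay below it. Lrat stood 1.69-fold lower (log2 difference -0.76, SE 0.22, limma adjusted p = 0.00517), and lower in 12 of 18 animals. In unpaired animals (11 tumors and 11 normal livers), its change was -0.58 and did not pass (limma adjusted p = 0.23).

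Colec11 encodes a collectin, a soluble lectin of innate immunity. The log2 value of Colec11 (cluster 17280383) was 6.65 at the lowest, 7.86 at the median and 9.82 at the highest in tumors, against 7.24, 8.29 and 10.15 in normal livers. The groups overlapped over nearly their whole range, with 5 tumors below the lowest normal liver. The log2 change of -0.32 did not pass the test (SE 0.16, limma adjusted p = 0.122), although the tumor was lower in 13 of 18 animals.

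**Figure D1:**
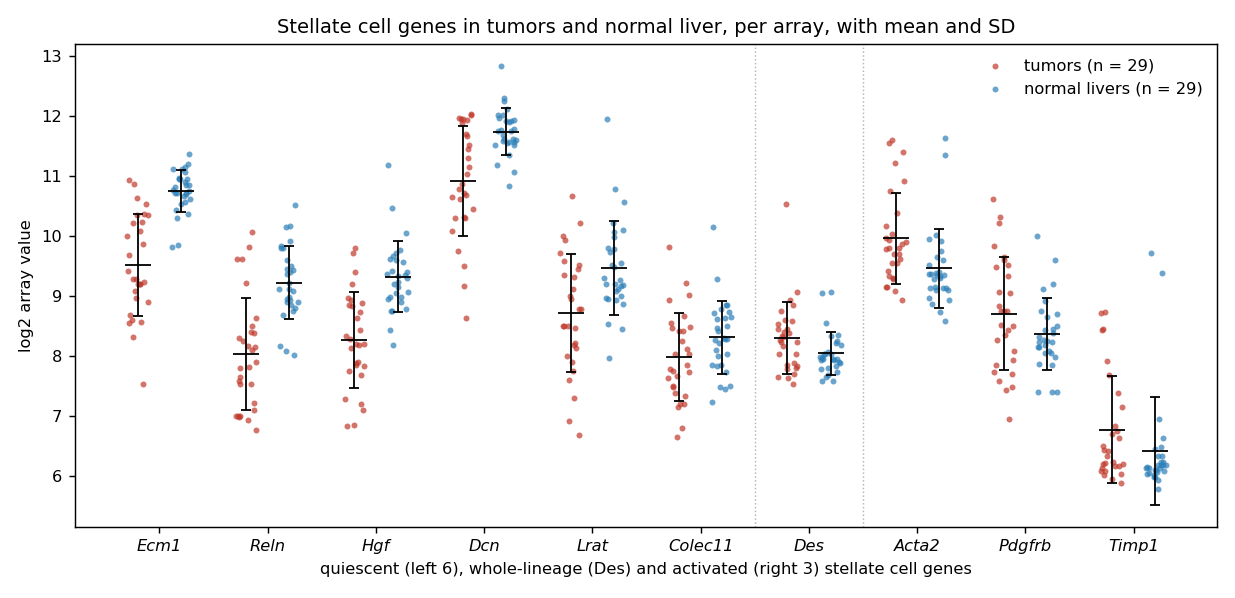
Log2 array value of the 10 genes in each of 29 tumors (red, left) and 29 normal livers (blue, right), with horizontal bars for the mean and error bars for the SD. In Ecm1, Reln, Hgf and Dcn between 12 and 17 tumors lie below the lowest normal liver, whereas in Acta2 and Timp1 the tumors lie within the range of normal liver.

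Acta2 encodes smooth muscle alpha actin, the standard marker of activated stellate cells, which vascular smooth muscle also makes. Its log2 value (cluster 17364098) was 8.93 at the lowest, 9.81 at the median and 11.6 at the highest in tumors, against 8.59, 9.35 and 11.64 in normal livers. The groups overlapped fully: 0 of 29 tumors lay above the highest normal liver or below the lowest. The high normal values were 11.64 in normal 17 and 11.35 in normal 27, and the next, 10.02, was that of normal 16. Acta2 was 1.43-fold higher in tumors (log2 change 0.51, SE 0.17, limma adjusted p = 0.0173), and higher in 14 of 18 animals. Without the 7 arrays against their sex label the change was 0.47 and the call was lost (limma adjusted p = 0.0555), and in unpaired animals it was 0.36 (limma adjusted p = 0.494).

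Pdgfrb encodes the beta receptor for platelet-derived growth factor, through which stellate cells are driven to divide and which pericytes carry too. The log2 level of Pdgfrb (cluster 17351027) was 6.96 at the lowest, 8.75 at the median and 10.63 at the highest in tumors, against 7.4, 8.26 and 10 in normal livers. The tumors extended beyond normal liver on both sides, with 3 above its highest value and 1 below its lowest. The log2 change of 0.38 did not pass the test (SE 0.19, limma adjusted p = 0.125), with higher values in the tumor in 13 of 18 animals. When only the 18 paired animals entered, each as its own fixed block, the change was 0.61 and passed (limma adjusted p = 0.0427), whereas it was -0.08 in unpaired animals (limma adjusted p = 0.908).

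Timp1 encodes an inhibitor of metalloproteinases that slows the breakdown of matrix. On the log2 scale Timp1 (cluster 17533713) was 5.89 at the lowest, 6.42 at the median and 8.74 at the highest in tumors, against 5.79, 6.15 and 9.72 in normal livers. In both tissues most arrays lay low and a few high: 8.74, 8.72, 8.45 and 8.43 in tumors 7, 15, 10 and 18, and 9.72 and 9.39 in normals 16 and 19. The log2 change of 0.36 did not pass the test (SE 0.22, limma adjusted p = 0.203), with higher values in the tumor in 10 of 18 animals. Without normal 16 it was 0.49 and passed (limma adjusted p = 0.0422).

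Des encodes desmin, the intermediate filament protein by which rodent stellate cells of either state are recognised and which muscle cells share. Its log2 value (cluster 17214476) was 7.53 at the lowest, 8.27 at the median and 10.54 at the highest in tumors, against 7.58, 7.96 and 9.07 in normal livers. The highest tumor value was that of tumor 9, the next being 9.07 in tumor 4, and the groups otherwise overlapped. The log2 change of 0.27 did not pass the test (SE 0.12, limma adjusted p = 0.077), with higher values in the tumor in 11 of 18 animals. Without normal 16 it was 0.31 and passed (limma adjusted p = 0.0328), and without both tumor 9 and normal 16 it was 0.22 (limma adjusted p = 0.0427).

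Within animals the means of the quiescent and of the activated genes parted in most pairs, whereas all 9 genes together did so in few. All 6 quiescent genes were lower in the tumor in 10 of 18 animals, and all 3 activated genes were higher in 7 of 18. Only 3 animals showed both. The mean difference over the 6 quiescent genes was below 0 in 16 animals and that over the 3 activated genes was above 0 in 15. Of the animals, 13 showed both, among them those of tumors 11 and 12, whose activated differences were 0.05 and 0.01. The exceptions for the quiescent mean were the pair of tumor 1 and normal 1, with a difference of 0.64, and the pair of tumor 19 and normal 17, with 0.2. The exceptions for the activated mean were the pairs of tumor 3, tumor 16 and tumor 20, with differences of -0.01, -1.16 and -1.06. The normal livers of tumors 16 and 20 were normals 16 and 19, which held the highest Timp1 values of the normal livers. The largest activated differences, 2.13 and 2.07, were those of tumors 7 and 4, in which the quiescent mean was lower by 0.28 and 0.66.

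**Figure D2:**
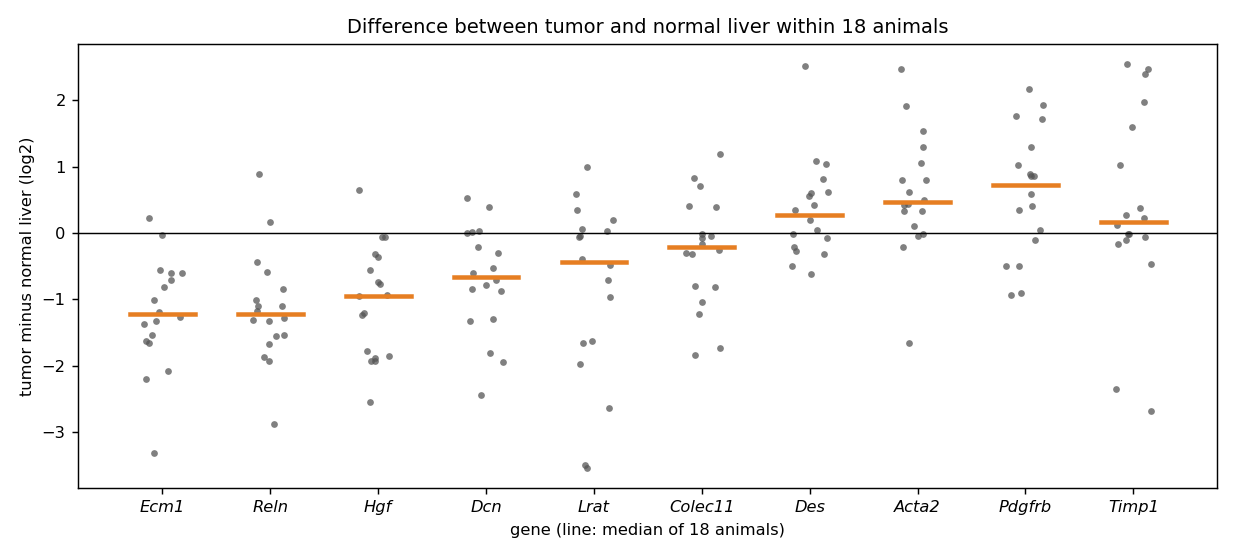
Tumor minus normal liver difference on the log2 scale for each gene in 18 animals (points), with the median as an orange line. The medians of the quiescent genes run from -1.23 for Reln to -0.2 for Colec11, and those of Des, Acta2, Pdgfrb and Timp1 lie between 0.17 and 0.72.

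Tumor by tumor, the quiescent genes lay below normal liver more often than the activated genes lay above it. Set against the mean of the normal livers, the quiescent mean ran from -2.41 in tumor 23 to 0.54 in tumor 19, with a median of -0.95, against -0.95 to 1.46 in normal livers. It was below 0 in 26 of 29 tumors and below every normal liver in 14. The activated mean ran from -0.65 in tumor 21 to 2.12 in tumor 7, with a median of 0.06. In normal livers it ran from -0.49 to 1.83, with a median of -0.21. The activated mean was above 0 in 18 tumors. In 16 tumors the quiescent mean was below 0 and the activated mean above it, in 9 both were below 0, in 2 both were above 0 and in 1, tumor 1, the quiescent mean alone was above 0. A further tumor, tumor 2, had an activated mean that rounded to 0. All 6 quiescent genes lay below the lowest normal liver in 3 tumors (2, 11 and 23), at least 4 did so in 12 tumors, and none did so in 9. Tumors 22 and 26, from 1 animal, had quiescent means of -1.8 and -1.35 and activated means of -0.41 and -0.06. The highest activated mean of the normal livers was that of normal 16, 1.83, followed by 1.22 in normal 27. Tumor 7 alone lay above normal 16. With normal 16 set aside, tumors 4, 6, 9, 10, 15 and 18 (1.24 to 1.7) also lay above every normal liver.

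**Figure D3:**
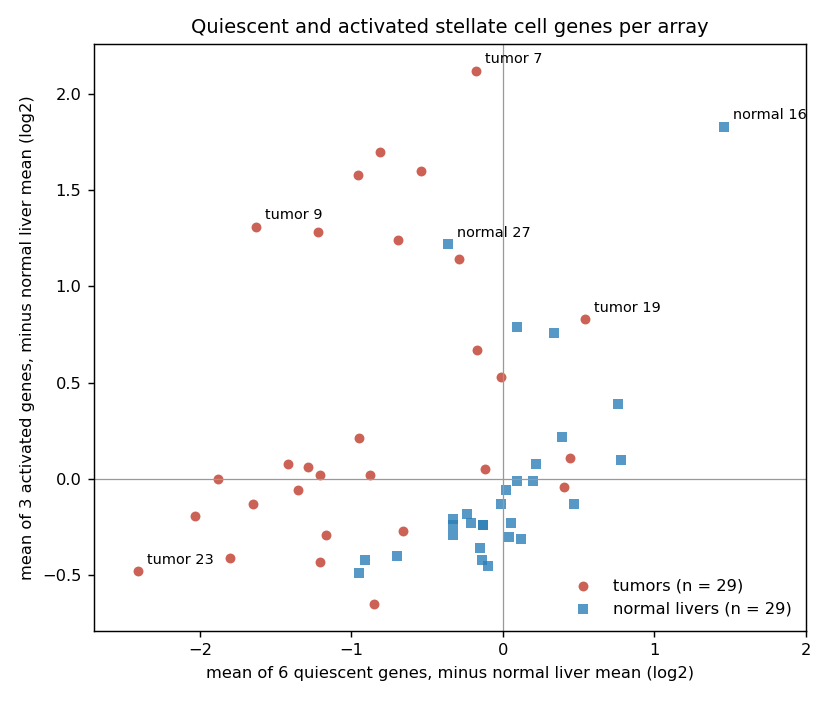
Mean of the 6 quiescent genes (horizontal axis) and of the 3 activated genes (vertical axis) in each tumor (red circles) and normal liver (blue squares), each gene taken as its log2 difference from the mean of the normal livers. The tumors reach -2.41 on the horizontal axis, and 14 lie left of every normal liver. On the vertical axis 1 tumor lies above normal 16 at 1.83. Tumors 4, 6, 9, 10, 15 and 18 lie between normal 16 and the next normal liver, at 1.22.

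Across tumors the quiescent genes correlated, at the median, more with each other than with the activated ones, and Dcn was less separate. Pearson's r between quiescent genes ran from 0.57 to 0.87 over 29 tumors (15 pairs of genes, median 0.71), the highest being that of Hgf and Dcn. Between activated genes it was 0.62 to 0.83 (3 pairs), the highest being that of Acta2 and Pdgfrb. Between a quiescent and an activated gene it was 0.01 to 0.69 (18 pairs, median 0.23), the highest being that of Dcn and Pdgfrb. With the other activated genes Dcn was at 0.52 for Acta2 and 0.35 for Timp1. With the quiescent genes Dcn was at 0.61 for Ecm1 and Lrat, 0.62 for Colec11, 0.68 for Reln and 0.87 for Hgf. Des was at 0.85 with Pdgfrb, 0.73 with Acta2 and 0.38 with Timp1. With the quiescent genes Des ran from -0.1 for Ecm1 to 0.57 for Dcn, above its value with Timp1. Without tumor 9, which held the highest value of both Des and Pdgfrb, Des was at 0.65 to 0.89 with the activated genes and at 0.29 to 0.61 with the quiescent ones, and its r with Lrat was 0.55, against 0.06 with all tumors. The genes share their arrays, so whatever moves a whole array enters every value. Without tumor 9 the medians were 0.78 among quiescent, 0.74 among activated and 0.33 between them. In normal livers the corresponding medians were 0.73, 0.44 and 0.44, and without normal 16 they were 0.69, 0.23 and 0.17. Dcn and Pdgfrb, placed here with different states, correlated at 0.92 in normal livers. There Pdgfrb was at 0.53 (Ecm1) to 0.92 with the quiescent genes, against 0.44 with Acta2 and 0.51 with Timp1. So in normal liver Pdgfrb did not follow the group it was placed in. In tumors it was at 0.17 (Ecm1) to 0.69 with the quiescent genes, against 0.83 with Acta2 and 0.64 with Timp1.

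**Figure D4:**
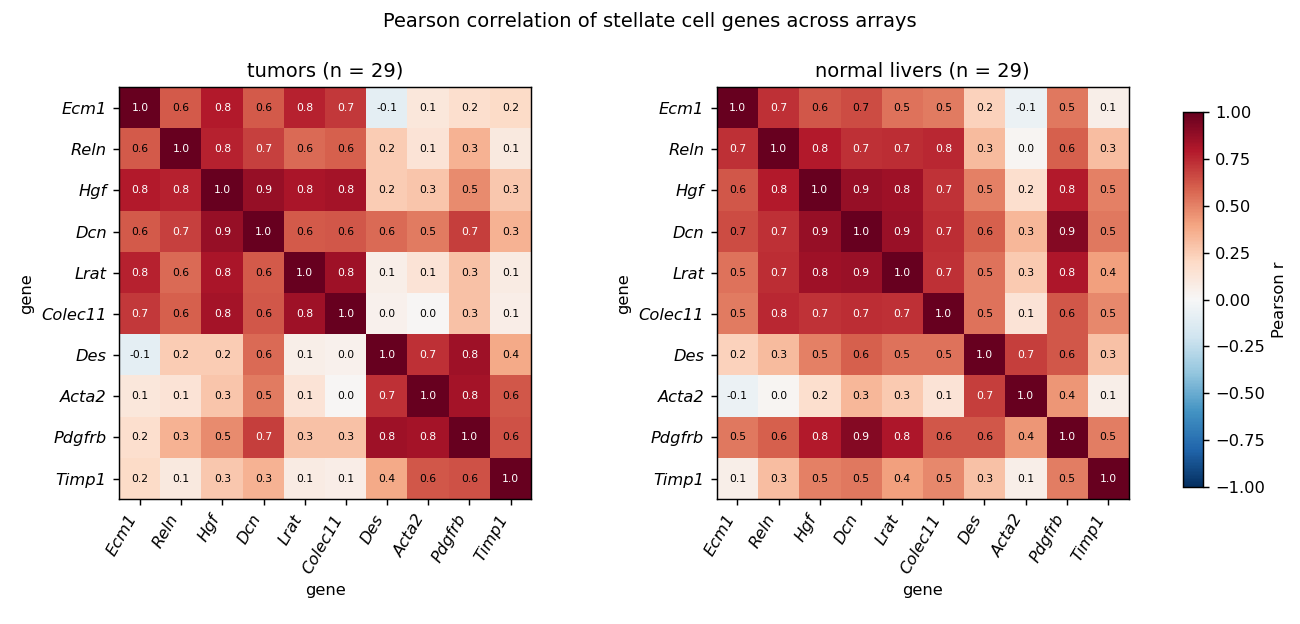
Pearson's r between the 10 genes over 29 tumors (left) and 29 normal livers (right), from -1 (blue) to 1 (red). In tumors the 6 quiescent genes form a block with r of 0.57 to 0.87, and the 3 activated genes one with r of 0.62 to 0.83. Between the blocks Dcn reaches 0.69 with Pdgfrb, and Des correlates at 0.38 with Timp1 and at 0.57 with Dcn.

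The genes most like each group over the tumors were looked up among all other genes. The 5 closest to the quiescent mean were Bmp5 (r = 0.89 over 29 tumors), Tcf21 (0.85), Tbx20 (0.83), Hand2 (0.81) and Pla2r1 (0.81). Bmp5 encodes a bone morphogenetic protein, Tcf21, Tbx20 and Hand2 encode transcription factors, and all 5 fell in tumors, by 0.9 for Bmp5, 0.53 for Tcf21, 0.4 for Tbx20, 0.53 for Hand2 and 0.35 for Pla2r1 on the log2 scale (limma adjusted p = 3.24e-06, 0.00242, 0.00938, 3.09e-08 and 9.99e-05). The 5 closest to the activated mean were Prss23 (r = 0.92), Tgfb3 (0.91), Mmp2 (0.9), Emp1 (0.9) and Plxdc2 (0.89). Of these Emp1 rose 1.96-fold and Prss23 1.44-fold (limma adjusted p = 0.000276 and 0.0035), and Tgfb3, Mmp2 and Plxdc2 had log2 changes of 0.29, 0.38 and 0.32 that did not pass. In normal livers the r of these 10 genes with the same means was 0.58 to 0.93. Without normal 16 it ran from 0.42 for Pla2r1 to 0.89 for Plxdc2, with 0.52 for Tgfb3 and 0.56 for Hand2.

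Other markers of quiescent stellate cells were lower in tumors as well. Of 20 measured, 11 fell and 0 rose, with a median log2 change of -0.41 against -0.02 over all genes. Colec10, the partner of Colec11 in a circulating collectin complex, was 7.22 at the median of tumors (6.14 to 9.61), against 8.99 in normal livers (7.46 to 10.45), and fell by 1.54 (SE 0.21, limma adjusted p = 2.85e-08). Rspo3, a secreted activator of Wnt signalling, fell by 1.01 and Vipr1, a receptor for vasoactive intestinal peptide, by 0.95 (limma adjusted p = 2.81e-08 and 5.15e-11), with 23 of 29 tumors below all normal livers for Vipr1. Bmp10 and Gdf2, ligands of endothelial receptors, fell by 0.8 and 0.73. Among the 9 that did not pass, Cygb, Gfap and Lhx2 had log2 changes of -0.01, -0.05 and -0.12, and Pdgfra, the alpha receptor for platelet-derived growth factor, had -0.42 (limma adjusted p = 0.119).

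Other activated markers moved less evenly. Of 20 measured, 6 rose (S100a6, Vim, Lox, Sparc, Fap and Tpm1), 2 fell (Fn1 and Tpm2) and 12 did not pass. S100a6, a calcium-binding protein, rose by 0.65 and Vim, the intermediate filament protein vimentin, by 0.56 on the log2 scale (limma adjusted p = 0.0155 and 0.00704). Fap, a protease of activated fibroblasts, was 6.95 at the median of tumors (6.44 to 8.37), against 6.65 in normal livers (6.35 to 7.31), and rose by 0.28 (limma adjusted p = 0.00659), with 4 tumors above all normal livers. Postn, Thbs2 and Ccn2, genes often high in myofibroblasts, had changes of 0.15, 0.16 and -0.04 that did not pass. Of 12 collagens, which the 10 genes leave out, 8 rose and 0 fell, led by Col1a1 at 1.07 and the basement membrane chains Col4a2 at 0.91 and Col4a1 at 0.76 (limma adjusted p = 0.000249, 8.51e-07 and 8.33e-06). With arrays centred on their median, 7 activated markers rose and 0 fell, and without the 7 arrays against their sex label 4 rose and 2 fell.

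The signals that act on stellate cells were measured too. Of the 5 other PDGF genes Pdgfb, the ligand of Pdgfrb, rose 1.07 on the log2 scale, being 8.76 at the median of tumors (7.07 to 10.15), against 7.49 in normal livers (7.11 to 9.71), and was higher in 16 of 18 animals (SE 0.15, limma adjusted p = 6.39e-08). Pdgfa rose by 0.24 (limma adjusted p = 0.000402), and Pdgfc and Pdgfd did not pass. Of 22 genes of the TGF-beta pathway, which drives collagen synthesis, 9 rose and 2 fell. Itgav, an integrin subunit that releases latent TGF-beta, rose by 1.16, Thbs1 by 0.95 and the receptor Tgfbr2 by 0.7 (limma adjusted p = 1.32e-09, 0.00392 and 1.18e-05), while the inhibitor Smad7 fell by 0.64 (limma adjusted p = 0.000329). Without the 7 arrays against their sex label 5 TGF-beta genes rose and 1 fell.

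Around Hgf, 4 of 12 pathway genes rose and 6 fell. The receptor Met fell by 0.32, Hgfac, a protease that activates Hgf, by 1.04 and the docking protein Gab1 by 0.61 (limma adjusted p = 0.0119, 2.04e-06 and 3.43e-06). Plau, the urokinase plasminogen activator, rose by 0.76 and was higher in the tumor in 17 of 18 animals, and Plat rose by 0.82 (limma adjusted p = 9.37e-07 and 0.000182). With arrays centred on their median 4 of these genes rose and 3 fell, and the call of Met was lost.

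Around Lrat, 3 of 20 genes of vitamin A handling rose and 6 fell. Over all genes 17.9% rose, which is near the share of this list, and 14.3% fell. Cyp26a1, the enzyme that degrades retinoic acid, was 8.55 at the median of tumors (6.02 to 10.77), against 10.19 in normal livers (8.65 to 11.81), and fell by 1.44 (SE 0.22, limma adjusted p = 7.55e-07). Rbp4, the plasma carrier of retinol, fell by 0.36 (limma adjusted p = 0.0494). Dgat1, an acyltransferase that can also esterify retinol, rose by 1.3, Dhrs9, a retinol dehydrogenase, by 1.26 and the lipase Lpl by 1.42 (limma adjusted p = 2.55e-09, 4.97e-07 and 2.58e-06). Of these Cyp26a1, Rbp4 and Dgat1 are also genes of hepatocytes. With arrays centred on their median 3 genes rose and 2 fell, and the call of Rbp4 was lost.

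Around Timp1, 3 of 15 metalloproteinases, inhibitors and related genes rose and 2 fell, near the shares over all genes (17.9% and 14.3%). Mmp13, a collagenase, was 7.65 at the median of tumors (5.88 to 10.48), against 6.02 in normal livers (5.77 to 7.35). In 18 of 29 tumors it lay above every normal liver, and it rose by 1.55 (SE 0.2, limma adjusted p = 7.43e-09), in 17 of 18 animals. Mmp12, the macrophage elastase, rose by 0.93 and the inhibitor Timp3 by 0.4, and the inhibitor Reck fell by 0.39 (limma adjusted p = 0.000259, 0.0252 and 0.000287). Of 3 reelin receptor and adaptor genes Vldlr rose by 0.74 and Lrp8 by 0.2, and Dab1 did not pass (-0.09). Of 11 small leucine-rich proteoglycans other than Dcn, Prelp fell by 0.76, Optc by 0.16 and Aspn rose by 0.75, and Lum and Bgn had changes of -0.16 and -0.03 that did not pass. The call of Optc was lost with arrays centred on their median. Of 6 genes of the lectin pathway around Colec11, 5 fell, among them the ficolin Fcna by 1.27 (limma adjusted p = 1.12e-08), which macrophages make.

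Among markers of Kupffer cells and sinusoidal endothelium, which lie next to stellate cells, about as many fell as did not. Of 10 Kupffer cell markers 5 fell and 0 rose, with list means of 7.7 to 10.37 in tumors (median 8.61) and 8.42 to 10.95 in normal livers (median 9.61). Vsig4 fell by 2.37 and Clec4f by 2.06 (limma adjusted p = 3.31e-07 and 2.39e-10), whereas the broader macrophage genes C1qb and Adgre1 had changes of 0.12 and -0.18 that did not pass. Sinusoidal endothelium had 12 markers, of which 6 were called lower. Clec4g fell by 2.03 and Stab2 fell by 1.01, while the 2 called higher, Flt4 and Pecam1, rose by 1.0 and 0.49. Their list means were 8.24 to 10.17 in tumors (median 9.14) and 9.04 to 10.16 in normal livers (median 9.61). Over the 29 tumors the quiescent mean correlated at 0.9 with the mean of the other quiescent markers and at 0.86 with that of sinusoidal endothelium. It was at 0.85 with that of Kupffer cells and at 0.3 with that of hepatocytes. Without tumor 9 these values were 0.94, 0.88, 0.86 and 0.47. The part of these cells in the result was not tested.

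The activated mean followed other lists over the tumors: r was 0.91 with the other activated markers, 0.9 with the TGF-beta pathway and 0.89 with the collagens. It was 0.8 with vascular smooth muscle, 0.73 with portal fibroblasts, 0.63 with mesothelium and 0.56 with T cells (0.68 without tumor 9). In normal livers the same r were 0.33, 0.64, 0.79 and 0.43 in that order, and without normal 16 they were 0.48, 0.49, 0.69 and 0.39. With sinusoidal endothelium r over the tumors was 0.18, and with Kupffer cells it was 0.23. Of 8 vascular smooth muscle genes, which share Acta2 and Des, Smtn rose by 0.43 (limma adjusted p = 2.41e-05), Mylk and Pln fell by 0.71 and 0.14, and Myh11 and Cnn1 did not pass (0.14 and -0.08). Their list means were 7.26 to 7.8 in tumors and 7.34 to 8.24 in normal livers. Of 11 portal fibroblast genes Fbln1 alone passed, with a rise of 0.18 that was lost without the 7 arrays against their sex label and with quantile normalization, and Thy1 and Eln had changes of 0.17 and 0.0. Portal fibroblast means were 7.12 to 8.15 in tumors and 7.09 to 7.84 in normal livers. Of 6 mesothelial genes Wt1 and Lrrn4 fell by 0.15 and 0.14, and the list means were 6.39 to 7.63 in tumors and 6.56 to 7.63 in normal livers. Of 7 cholangiocyte genes 4 fell, of 10 hepatocyte genes 3 fell and of 6 T cell genes 1, Cd4, rose. With arrays centred on their median the calls of Pln, Wt1 and Lrrn4 were lost, and 1 cholangiocyte gene fell. None of these markers was at 0, since array values have no zero, and their part in the activated genes was not tested.

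**Figure D5:**
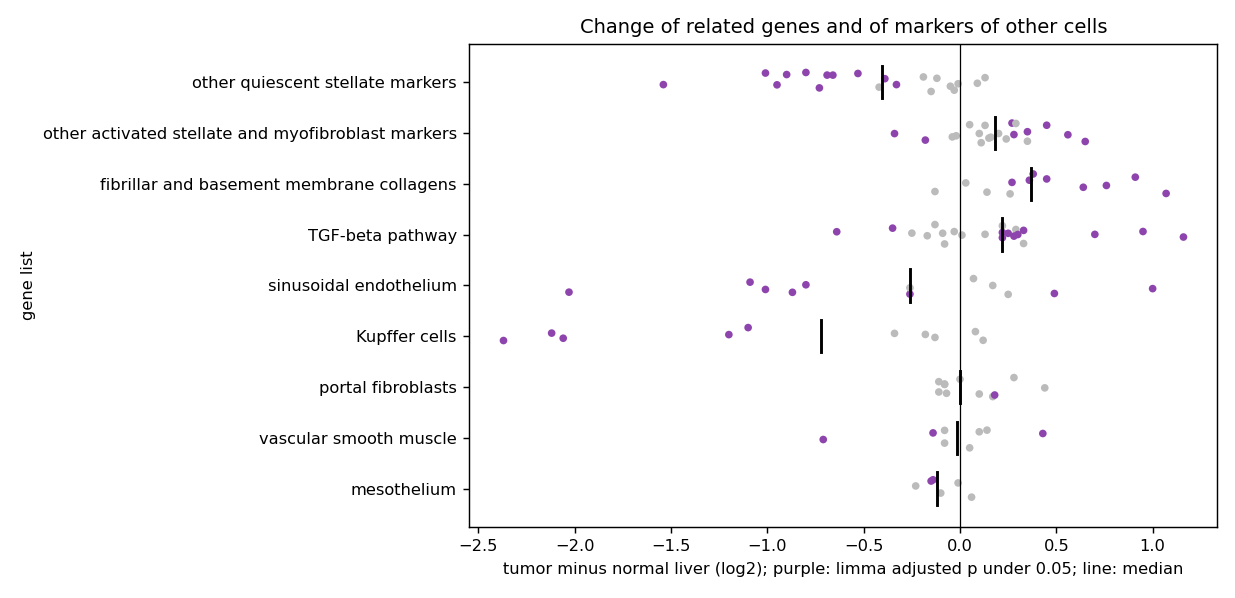
Tumor minus normal liver change on the log2 scale of each measured gene in 9 lists, with genes called at a limma adjusted p under 0.05 in purple, others in grey and the list's median as a black line. Quiescent markers (median -0.41), Kupffer cell markers (-0.72) and sinusoidal endothelium (-0.26) lie mostly left of 0, and collagens (0.37) and the TGF-beta pathway (0.22) mostly right of it.

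By labelled sex, the fitted changes of all 6 quiescent genes were below 0 in both sexes and nearer 0 in females, a difference that did not pass the adjusted test for any of them. The change of Hgf was -0.46 in females (11 tumors, 9 normal livers) and -1.33 in males (17 tumors, 20 normal livers), a difference of 0.87 (SE 0.32, unadjusted p = 0.00869 in limma, adjusted p = 0.949). Ecm1 changed by -0.74 in females and -1.46 in males, a difference of 0.72 (limma unadjusted p = 0.0239), and Dcn by -0.33 in females and -0.99 in males, a difference of 0.66 (limma unadjusted p = 0.0399). Reln changed by -0.71 in females and -1.44 in males, a difference of 0.73 (limma unadjusted p = 0.0546). For Lrat and Colec11 the difference was 0.47 and 0.08. Without the 7 arrays against their sex label the difference was 0.83 for Hgf, 0.67 for Ecm1 and 0.62 for Dcn (limma unadjusted p = 0.0204, 0.0575 and 0.0763), and without normal 16 it was 1.13, 0.75 and 0.81. With tumor 9, a male tumor, left out, it was 0.84, 0.6 and 0.72. None of the 10 genes passed after adjustment, and 0.0% of all genes did (0 of 22180), against 4.53% at an unadjusted p under 0.05. In males alone 5 of the 10 genes were called lower (14.5% of all genes) and in females 0 of the 10 were called in either direction (2.06%), which does not show that the sexes differ. Dcn was 10.46 to 12.04 in female tumors (median 11.68) and 9.17 to 12.03 in male tumors (median 10.73), against 10.84 to 12.84 in female and 11.08 to 12.31 in male normal livers.

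In normal liver itself 0 of the 10 genes differed between females and males by the adjusted test, and 0.0496% of all genes did, against 3.69% at an unadjusted p under 0.05. The size furthest from 0 was that of Timp1, 0.7 higher in females (SE 0.34, limma unadjusted p = 0.0477, adjusted p = 1.0), where normals 16 and 19 held 9.72 and 9.39 and the other 7 female livers were low. The median was 6.18 in female livers and 6.14 in male livers. Without normal 16 the difference was 0.34, and without the 7 arrays against their sex label it was 0.77.

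The -/- and +/- marks were compared in 9 male normal livers, 4 against 5. Acta2 was 11.64, 11.35, 9.75 and 9.13 in the -/- livers, against 8.87 to 9.96 in the +/- livers, a difference of 1.07 (SE 0.47, limma unadjusted p = 0.0443, adjusted p = 0.745). The -/- livers 17 and 27 lay above all +/- livers, and the -/- liver with 9.75 and that with 9.13 lay among them. Reln was 8.09 to 9.81 in -/- livers and 9.09 to 10.18 in +/- livers (difference -0.67, limma adjusted p = 0.782). None of the 10 genes passed, and 0.0% of all genes did, against 6.59% at an unadjusted p under 0.05. Normals 26 and 27, of different mark, carry the same animal title, so they may not be separate animals.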

How the data were processed

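Total RNA of 58 liver samples was hybridised to Mouse Gene 2.0 ST arrays. The deposited log2 values, 1 per transcript cluster and array, were made by the authors; per the submitters' processing notes the tool was Affymetrix Expression Console. Its version, its summary method and the build were not given in the sources used here. They ran from 2.91 to 14.08 and were used without further scaling. Scanner output was not used here, and no detection limit is known for dim genes.

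Of 41345 clusters 23521 carried 1 gene symbol in the platform table, 1814 several and 16010 none; the brightest single-symbol cluster of each symbol gave 22180 genes. A second Des cluster, shared with another symbol, was left out. Groups came from the tissue label, sex from the gender label, animals from the titles, and replicate numbers only name arrays. Pairs are arrays whose titles name the same animal: after subtraction of the group means the 2 arrays of an animal had a median correlation of 0.241 (-0.196 to 0.539, above 0.1 in 15 of 18), against -0.02 between animals.

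Tests used limma 3.58.1 with statmod 1.5.0 in R 4.3.3: lmFit, animals as random blocks (duplicateCorrelation, block correlation 0.145), eBayes with trend and Benjamini-Hochberg adjustment over 22180 genes, called at 0.05. Sex contrasts came from 1 fit of 4 groups over 57 arrays (block correlation 0.148), and the marks from 9 male normal livers without a block. The fits were run on simulated data with known changes. There the tumors had the SD of normal livers, so that check does not cover the wider spread of the real tumors. Correlations are Pearson's r and carry no test. Figures were drawn with matplotlib 3.10.9 in Python 3.11.15.

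The members and gene lists were chosen with earlier results of these data known. All 10 members are named, and from each list up to 3 genes of smallest adjusted p, the gene of largest change and, as counterexamples chosen after their values were seen, some others; likewise the 5 genes closest to each mean over the tumors. Promoter sequence and its coordinates are RefSeq's for build GRCm38.p6. Alternatives covered the block, pairs, scaling, array weights, single arrays, sex, dim genes, clusters per gene, the variance model and the reading of titles.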

Additional observations from a re-analysis of the deposited data

Results flagged for a closer look

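Normal 16, a female normal liver, stood apart from the other 8 female normal livers in 5 genes, its gap to the nearest exceeding Dixon's 95% critical value. Its log2 values were 11.95 for Lrat, 9.07 for Des, 11.19 for Hgf, 10.15 for Colec11 and 10 for Pdgfrb. The flagged values are 5 of 30 combinations of gene and group tested, and chance flags about 1 in 20 groups. All 5 come from the same array, which also had the highest Kupffer cell mean (10.95, against 8.42 to 10.63 in the other normal livers) and cholangiocyte mean (8.69) of the normal livers.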

How the results depend on the processing

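Ecm1, Reln, Hgf and Dcn kept their direction and their call under all 16 alternatives, and Colec11 stayed without a call in all 16. The count of 5 genes called lower was 4 among animals without a pair, where Lrat was lost. That fit had no block, so tumors 22 and 26 of 1 animal and arrays with near-identical titles were treated as separate. The count of genes called higher, 1 with all arrays, moved more. It was 2 when the 18 paired animals were each a fixed replicate block (Acta2 and Pdgfrb), 2 with arrays centred on their median (Acta2 and Des), 4 with array weights (Acta2, Des, Pdgfrb and Timp1), 0 among animals without a pair and 0 without the 7 arrays against their sex label. Leaving out tumor 9 or normal 16 gave 1 to 3, and leaving out both gave 3 (Acta2, Des and Timp1). Pdgfrb turned to -0.08 among animals without a pair. The cause was not tested. Without a block the counts were 1 higher and 5 lower, and they were the same with near-identical titles read as 1 animal.

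Over all genes 3964 were called higher and 3166 lower. These were 4689 and 1727 with arrays centred on their median, 5345 and 6169 with array weights, 1370 and 703 among animals without a pair, where fewer arrays entered, 2802 and 1804 in the 18 pairs, and 3303 and 1920 among the 11090 brighter genes, where Timp1 was not tested. Without the 7 arrays the list counts that moved by over 1.5 times were TGF-beta genes that rose (9 to 5) and fell (2 to 1), portal fibroblast rises (1 to 0), mesothelial falls (2 to 0), smooth muscle falls (2 to 1), proteoglycan falls (2 to 1) and reelin receptor rises (2 to 1). Without tumor 9, hepatocyte rises and falls were 2 and 6, against 0 and 3, and 1 T cell gene fell. Without normal 16, 1 TGF-beta gene fell, 1 cholangiocyte gene rose and 2 T cell genes rose.

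The counts for the sex difference of the tumor change, for female against male normal liver and for the marks were 0 of 10 under each alternative run, the 9 fits that leave out 1 marked liver included. Female against male normal liver could not be fitted with a fixed block. Signal over background was not available, so how far Timp1 lies above background at its low end is unknown.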
